A study of Homo sapiens with 12 samples.

Results

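The genes described here were 52 members of the DNA replication machinery together with the E2F transcription factors, taken by gene symbol from the 23273 rows of the expression tables of 2 BRAF-mutant human melanoma cell lines, COLO858 and MMACSF. All 52 were found in both tables and passed the filter on low values in both lines. Plated cells were given, the day after seeding, medium with DMSO, the solvent control, or with 0.2 μM vemurafenib, an inhibitor of the mutant BRAF kinase. The 6 groups, each of 2 libraries, were COLO858 in DMSO, COLO858 after 24 h in vemurafenib, COLO858 after 48 h in vemurafenib, and the same 3 conditions in MMACSF; the labels do not say for how long the DMSO cells were cultured. Levels are given as FPKM (mapped fragments scaled to the length of the transcript and to the size of the library), with the values of a group in the order of the replicate numbers.

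In a dividing cell, replication origins are licensed in G1 when the origin recognition complex, CDC6 and CDT1 load the MCM helicase, and they are fired in S phase when the kinase CDC7, CDC45 and the GINS complex activate it. DNA polymerases, the sliding clamp PCNA and enzymes that join Okazaki fragments then copy the strands, and ribonucleotide reductase, thymidylate synthase and thymidine kinase supply the nucleotides. Many of these genes are targets of E2F factors, which the retinoblastoma protein holds inactive until RAF, MEK and ERK signaling raises cyclin D, so that mRNA of this machinery is low in cells outside the cell cycle. Because bulk RNA was measured, fewer cycling cells and less mRNA per cell cannot be told apart.

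The promoters of these genes were read first for a few words, listed below, of the letters that E2F factors are known to bind. Windows from 250 bases before to 50 bases after the start (RefSeq, build GRCh38.p14) were at hand for 45 of the 52 genes. Stretches of 140 bases, from 120 before to 20 after the start, are shown for genes on which the results turn, 5′ to 3′ on the strand of the gene, with E2F words in capitals. Those with a word were E2F1 (chr20:33686366-33686505, minus strand), CDC6 (chr17:40287759-40287898, plus strand), CDT1 (chr16:88803669-88803808, plus strand), MCM2 (chr3:127598291-127598430, plus strand), GINS2 (chr16:85688935-85689074, minus strand) and POLE2 (chr14:49688195-49688334, minus strand).
E2F1: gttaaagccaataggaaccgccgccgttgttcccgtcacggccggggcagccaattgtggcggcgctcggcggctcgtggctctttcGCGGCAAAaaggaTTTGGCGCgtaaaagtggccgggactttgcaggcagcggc
CDC6: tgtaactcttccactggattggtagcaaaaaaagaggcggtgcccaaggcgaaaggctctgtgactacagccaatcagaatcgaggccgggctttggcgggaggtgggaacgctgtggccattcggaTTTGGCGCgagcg
CDT1: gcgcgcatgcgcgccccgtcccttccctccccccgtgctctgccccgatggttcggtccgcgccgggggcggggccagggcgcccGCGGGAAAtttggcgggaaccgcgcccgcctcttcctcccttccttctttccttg
MCM2: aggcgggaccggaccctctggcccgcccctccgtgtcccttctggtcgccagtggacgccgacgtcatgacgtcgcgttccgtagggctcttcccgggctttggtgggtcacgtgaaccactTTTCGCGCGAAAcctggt
GINS2: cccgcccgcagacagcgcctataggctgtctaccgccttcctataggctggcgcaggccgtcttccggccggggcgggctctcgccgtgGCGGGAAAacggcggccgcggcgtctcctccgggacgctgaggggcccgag
POLE2: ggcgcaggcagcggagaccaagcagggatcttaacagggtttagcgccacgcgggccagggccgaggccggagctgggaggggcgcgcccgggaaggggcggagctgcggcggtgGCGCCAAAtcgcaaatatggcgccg

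The stretches of RFC1 (chr4:39366343-39366482, minus strand) and CDC45 (chr22:19479800-19479939, plus strand) are shown because neither window held a word of those searched. RFC1 was not called in any comparison by the model used throughout, which ignores the replicate numbers. The log2 fold-change of CDC45 at 24 h in COLO858 was the lowest of the 52. The letters tttggcggg, in the CDC45 stretch and unmarked in those of CDC6 and CDT1, were not searched. The absence of a word is therefore not the absence of an E2F site.
RFC1: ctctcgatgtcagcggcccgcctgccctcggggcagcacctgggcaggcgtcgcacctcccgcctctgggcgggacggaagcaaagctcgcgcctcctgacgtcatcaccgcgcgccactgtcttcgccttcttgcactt
CDC45: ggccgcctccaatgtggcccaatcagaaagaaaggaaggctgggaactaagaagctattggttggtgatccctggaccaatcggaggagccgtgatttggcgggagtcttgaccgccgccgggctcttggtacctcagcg

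The words searched were TTTCCCGC, TTTCGCGC, TTTGCCGC and TTTGGCGC on either strand; on the opposite strand they read GCGGGAAA, GCGCGAAA, GCGGCAAA and GCGCCAAA, and 2 words may overlap, as in MCM2. At least 1 word was present in 23 of the 45 genes (51.1%) and in 24 of their 61 windows (39.3%), against 3.99% of 27305 genes and 3.31% of 35116 windows in the whole table. Among 42 other genes of replication and of the E2F and RB families, a list described further on, a word was present in 28.6% of genes and 20% of their 60 windows. The letters CCAAT, in either direction, were in 54.1% of the members' windows, 43.3% of the windows of those other genes and 34.6% of all windows. Among members with a word the median log2 fold-change at 24 h in COLO858 was −2.78 (n = 23), and among those without it was −2.25 (n = 22); in MMACSF the medians were −1.59 and −1.41. The ranges of the groups overlapped almost completely in both lines, and no test was made. CDC7, with 2 words, was the member with the smallest change in COLO858 at 24 h.

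Libraries of a group resembled each other. The replicate correlation over all tested genes was 0.915 to 0.941 and, over the 52 members alone, 0.971 to 0.986. A single small RNA, MIR4461, made up 14.1 to 43.4% of the summed FPKM of a library, a share that differed between replicates of each group; FPKM carry no read depth, and the precision of a single library is therefore unknown. The tables of the lines may have been scaled separately, so a level set across lines is a description only. Of the markers of the melanocyte lineage, MITF, SOX10, PMEL, DCT, S100B, S100A1 and PAX3 were present in all 12 libraries, and TYRP1 was low, at 1.48 to 16.4 FPKM. MLANA lay between 0.299 and 0.725 FPKM and TYR between 0.282 and 1.21 FPKM in COLO858, that is, near absence, while in MMACSF both were at 178 FPKM or more in every library. S100A1 differed the other way, at 306 to 511 FPKM in COLO858 and 10.3 to 22.3 FPKM in MMACSF. Their part in the results below was not tested. Nothing beyond the plating in duplicate says how independent the replicates were, so p-values measure the spread between these plates, and the 2 cell lines are 1 line each.

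Within 24 h of vemurafenib 45 of the 52 replication genes were called lower in COLO858 (5.71% of all tested genes) and 33 in MMACSF (3.60%). Called or not, 52 had a negative log2 fold-change at 24 h in COLO858, where 5830 of 12696 tested genes had one. In MMACSF 51 had one, where 5524 of 12599 tested genes did. From 24 to 48 h in drug 22 were called higher in COLO858, where 1.17% of all tested genes were. In MMACSF none was called in either direction over that time, where 0.111% of all tested genes were called lower. Calls are by limma at an adjusted p under 0.01, and genes said below to fall or rise were called. All calls ignore the replicate numbers unless a replicate block is named. The summed level of the 52 genes in COLO858 was 2721 FPKM in both DMSO libraries, 493 FPKM in both 24 h libraries, and 1703 and 1730 FPKM at 48 h. In MMACSF it was 1414 and 1397 FPKM in DMSO, 505 and 490 FPKM at 24 h, and 476 and 470 FPKM at 48 h. As a share of its own DMSO mean, the median gene of COLO858 stood at 13.7% after 24 h and 64.5% after 48 h, while that of MMACSF stood at 31.4% and then 29.9%.

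In COLO858 at 24 h, 45 of the 52 genes were called lower than DMSO (limma, adjusted p under 0.01 over all genes tested), where 5.71% of the 12696 genes tested were called lower. No member was called higher. The median log2 fold-change, on log2(FPKM + 1) throughout, was −2.45 over the members and 0.06 over all tested genes. The 7 genes not called were CDC7, DBF4, PRIM2, POLD1, RFC1, RPA1 and DUT, with log2 fold-changes from −0.26 for CDC7 to −2.12 for POLD1. In 51 of the 52, all but CDC7, both drug libraries lay below both DMSO libraries, a pattern shown by 29.0% of all tested genes. With any 1 of the 4 libraries compared left out (each DMSO and each 24 h library of COLO858), calls fell over the members and over all tested genes. The median over the members then lay between −2.47 and −2.39. With a replicate block, that is, a term for the replicate number, 51 members were called lower, where 21.8% of all tested genes were.

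In COLO858 at 48 h, 1 of the 52 genes was called lower than DMSO, POLD2, where 4.73% of tested genes were, and none was called higher. An unadjusted p under 0.05 was found for 31 members and 39.3% of all tested genes, and an adjusted p under 0.05 for 21 members and 26.0% of all tested genes. The median log2 fold-change was −0.58, against −0.01 over all tested genes. Both 48 h libraries lay below both DMSO libraries in 42 genes, a pattern that 31.4% of all tested genes showed, and the groups overlapped in GINS1, GINS4, CDC7, PRIM2, POLD3, PCNA, RFC1, RPA1, RPA2 and DUT. The call of POLD2 was lost when any 1 of the DMSO or 48 h libraries of COLO858 was left out, and calls over all tested genes fell too. The median over the members then lay between −0.62 and −0.52. With a replicate block, 36 members were called lower at 48 h, where 23.3% of all tested genes were, and 1 higher, where 20.4% were. The comparisons at 24 and 48 h share their DMSO libraries.

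In MMACSF, 33 of the 52 genes were called lower than DMSO at 24 h, where 3.60% of 12599 tested genes were, and 38 were called lower at 48 h, where 5.41% were. The median log2 fold-changes were −1.52 and −1.54, against 0.07 and 0.06 over all tested genes. Both drug libraries lay below both DMSO libraries in 50 genes at 24 h (25.8% of all tested genes) and in 51 genes at 48 h (28.8%). RFC1 was the exception at both times and CDC7 at 24 h. With any 1 of the DMSO or drug libraries left out in turn, calls fell over the members and over all tested genes. The median over the members then lay between −1.60 and −1.48 at 24 h and between −1.63 and −1.55 at 48 h.

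**Figure D1:**
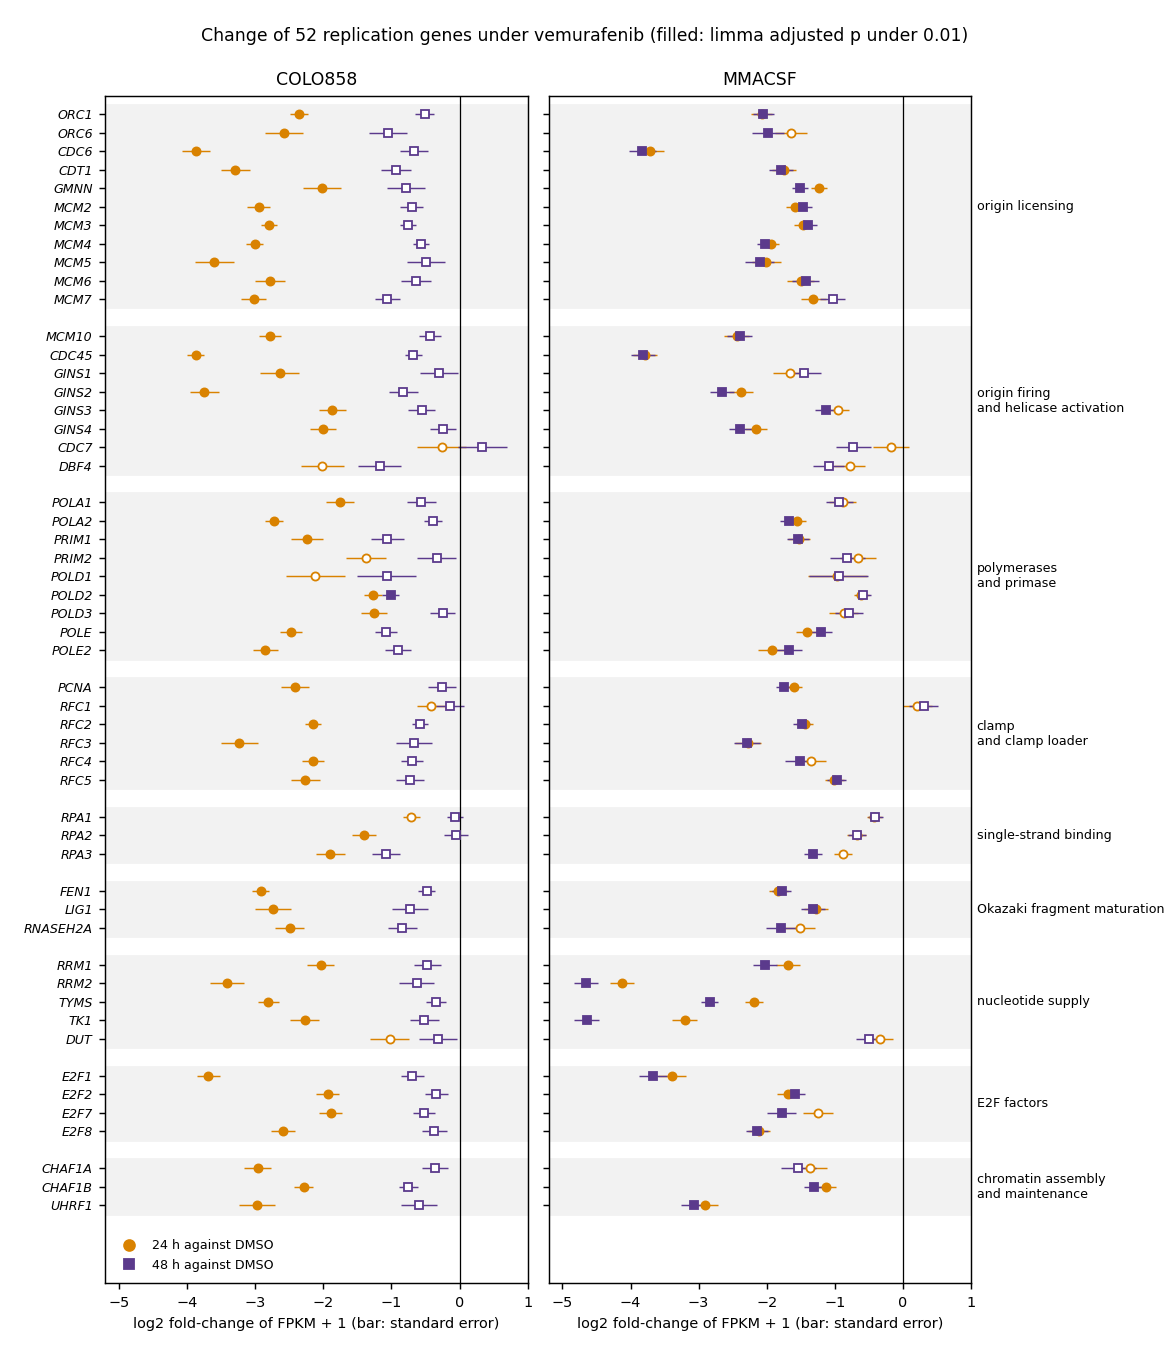
Log2 fold-change of FPKM + 1 against DMSO (x axis) for each of the 52 genes (rows, grouped by role) in COLO858 (left) and MMACSF (right), with standard errors; circles are 24 h, squares 48 h, and filled symbols have a limma adjusted p under 0.01. In COLO858 the 24 h circles center near −2.45 and the 48 h squares near −0.58, whereas in MMACSF circles and squares lie on top of each other for most genes.

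All 11 origin licensing genes fell in COLO858 at 24 h, to between 4.75% (CDC6) and 23.8% (GMNN) of DMSO. CDC6, an ATPase that recruits the helicase to origins (chromosome 17, 38444131 to 38460909, plus strand, hg19), stood at 40.0 and 50.5 FPKM in DMSO, 1.97 and 2.33 FPKM at 24 h, and 24.4 and 32.0 FPKM at 48 h in COLO858. In MMACSF it stood at 26.9 and 32.2 FPKM in DMSO, 1.01 and 1.69 FPKM at 24 h, and 1.13 and 1.17 FPKM at 48 h. The lines were close at 24 h and far apart at 48 h, with no overlap of DMSO and drug libraries in either line. The log2 fold-change of CDC6 was −3.87 (SE 0.20, limma adjusted p = 0.000787) at 24 h and −0.67 (SE 0.20, adjusted p = 0.067) at 48 h in COLO858. In MMACSF it was −3.71 (SE 0.20, adjusted p = 0.00101) and −3.83 (SE 0.20, adjusted p = 0.000552).

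CDT1, the partner of CDC6 in helicase loading, read 35.0 and 30.7 FPKM in DMSO, 2.87 and 2.08 FPKM at 24 h, and 19.5 and 14.2 FPKM at 48 h in COLO858. It fell by 3.29 on the log2 scale at 24 h (adjusted p = 0.00115), and its value of −0.94 at 48 h was not called (adjusted p = 0.0326). In MMACSF, where DMSO cells held less CDT1 (7.17 ± 1.29 FPKM, SD, n = 2), it fell by 1.75 at 24 h and 1.79 at 48 h. GMNN encodes geminin, which binds CDT1 and blocks relicensing. Its mean was 55.0 ± 9.20 FPKM in DMSO, 13.1 ± 4.08 FPKM at 24 h and 31.7 ± 7.37 FPKM at 48 h in COLO858, and 31.3 ± 1.05, 12.8 ± 0.0506 and 10.4 ± 0.385 FPKM in MMACSF (SD, n = 2 each). ORC1, the cell cycle regulated subunit of the origin recognition complex, went from 8.82 and 8.45 FPKM to 0.969 and 0.798 FPKM at 24 h, and 5.75 FPKM in both libraries at 48 h in COLO858; in MMACSF it fell by 2.07 at 24 h and 2.05 at 48 h.

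The 6 subunits of the helicase core, MCM2 to MCM7, differed in level and fell in both lines at 24 h. In COLO858 DMSO cells MCM7 was the most abundant of all 52 genes (361 and 292 FPKM), MCM5 followed among the helicase subunits (157 and 112 FPKM), and the other 4 had means between 65.1 FPKM (MCM6) and 77.3 FPKM (MCM3). All 6 fell at 24 h in COLO858, to between 7.64% (MCM5) and 13.2% (MCM3 and MCM6) of DMSO. At 48 h they stood between 47.9% (MCM7) and 70.6% (MCM5), and none was called. MCM2 was measured at 82.9 and 70.7 FPKM in DMSO, 9.68 and 8.44 FPKM at 24 h, and 51.6 and 42.0 FPKM at 48 h in COLO858. The same gene in MMACSF gave 19.1 and 18.6 FPKM, then 5.25 and 5.97 FPKM, then 6.34 and 6.10 FPKM. Its 3 groups were separate in COLO858, and in MMACSF the 24 and 48 h libraries were close. All 6 subunits fell in MMACSF at 24 h and all but MCM7 at 48 h, with MCM7 at −1.03 (SE 0.18, adjusted p = 0.0155).

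Of the 8 origin firing and helicase activation genes, 6 fell in COLO858 at 24 h. The 2 not called were the kinase CDC7 and its activator DBF4, which differed in their levels. CDC7 stood at 81.2% of DMSO and DBF4 at 20.4%, just outside the threshold. CDC45, the helicase cofactor that joins MCM and GINS at the fork (chromosome 22, 19466980 to 19508135, plus strand, hg19), measured 59.6 and 56.1 FPKM in DMSO, 2.97 and 3.06 FPKM at 24 h, and 35.4 and 35.9 FPKM at 48 h in COLO858. In MMACSF it measured 23.7 and 22.1 FPKM, then 0.743 and 0.731 FPKM, then 0.917 and 0.490 FPKM. All drug libraries lay below DMSO in both lines, with those of COLO858 at 48 h nearest to it, and in MMACSF all were under 1 FPKM, with the 48 h replicates less alike than the others. Its log2 fold-changes were −3.87 (SE 0.12, adjusted p = 0.000283) and −0.68 (SE 0.12, adjusted p = 0.0165) in COLO858, and −3.78 (SE 0.18, adjusted p = 0.000672) and −3.82 (SE 0.18, adjusted p = 0.000428) in MMACSF.

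MCM10, a scaffold needed when the helicase is activated, was left with the smallest share of its DMSO level in COLO858 at 24 h, 3.63%. It read 7.32 and 8.39 FPKM in DMSO, 0.275 and 0.295 FPKM at 24 h, and 4.98 and 6.14 FPKM at 48 h. In MMACSF its share was 2.77% at 24 h and 3.44% at 48 h. GINS2, a subunit of the GINS complex, fell by 3.74 in COLO858 at 24 h and by 2.38 and 2.66 in MMACSF at 24 and 48 h; its 48 h value in COLO858 was −0.82 (SE 0.21, adjusted p = 0.0412). The other GINS subunits, GINS1, GINS3 and GINS4, stood between 12.4 and 19.3% of DMSO in COLO858 at 24 h and between 65.1 and 82.0% at 48 h.

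CDC7, the kinase that triggers firing, was not called in any comparison by the model used throughout, which ignores the replicate numbers. In COLO858 it stood at 7.68 and 12.6 FPKM in DMSO, 6.42 and 10.1 FPKM at 24 h, and 9.82 and 16.3 FPKM at 48 h. The 3 groups overlapped, but within each replicate number CDC7 was lowest at 24 h and highest at 48 h. With a replicate block it was called higher than DMSO at 48 h, as were 20.4% of all tested genes. Its log2 fold-change of −0.26 at 24 h (SE 0.36, adjusted p = 0.623) turned to 0.063 without the second DMSO library and 0.026 without the first 24 h library, and its 0.33 at 48 h (SE 0.36, adjusted p = 0.541) to −0.0073 without the second 48 h library. In MMACSF it stood at 6.36 and 8.94 FPKM in DMSO, 6.15 and 7.01 FPKM at 24 h, and 3.21 and 5.32 FPKM at 48 h, with log2 fold-changes of −0.18 (adjusted p = 0.669; 0.040 without the second DMSO library) and −0.73 (adjusted p = 0.0981). DBF4 in COLO858 had a log2 fold-change of −2.01 (SE 0.31, adjusted p = 0.0107) at 24 h and −1.17 (SE 0.31, adjusted p = 0.0478) at 48 h, and at 48 h its 41.2% was the smallest share of DMSO among the 52 genes. Its values were 15.0 and 24.4 FPKM in DMSO, 3.46 and 4.59 FPKM at 24 h, and 6.33 and 9.89 FPKM at 48 h, without overlap between DMSO and drug.

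Of the 9 polymerase and primase genes, 7 fell in COLO858 at 24 h, with a median of 21.6% of DMSO, and at 48 h their median was 49.3% of DMSO, the lowest of the 9 role medians. In MMACSF 4 of the 9 were called lower at each time. POLE, the catalytic subunit of the leading strand polymerase, read 25.6 and 21.9 FPKM in DMSO, 3.69 and 3.21 FPKM at 24 h, and 11.6 and 9.91 FPKM at 48 h in COLO858; its log2 fold-change at 48 h, −1.08 (SE 0.16), had an adjusted p of 0.0101, just outside the threshold. In MMACSF it fell by 1.41 and 1.20. PRIM1, the catalytic primase, fell by 2.24 in COLO858 at 24 h and by 1.53 and 1.54 in MMACSF. POLA1, which carries the polymerase activity of the primase complex, fell by 1.75 in COLO858 at 24 h, and its values of −0.88 and −0.93 in MMACSF were not called (adjusted p = 0.033 and 0.0243).

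POLE2, an accessory subunit of polymerase epsilon, stood at 7.99 and 11.0 FPKM in DMSO, 0.371 and 0.516 FPKM at 24 h, and 4.44 and 4.64 FPKM at 48 h in COLO858. In MMACSF it was at 3.56 and 3.26 FPKM in DMSO, at 0.357 FPKM and listed at 0 at 24 h, and at 0.304 and 0.453 FPKM at 48 h. The zero may be a failed estimate, and the fitted values of POLE2 in MMACSF rest on it in part. POLD2, an accessory subunit of polymerase delta, was the most abundant member after MCM7 in COLO858 DMSO cells, and its change from 24 to 48 h there was the smallest of the 52. Its libraries read 246 and 222 FPKM in DMSO, 103 and 90.6 FPKM at 24 h, and 119 and 111 FPKM at 48 h. The log2 fold-changes were −1.27 (SE 0.13, adjusted p = 0.00344) and −1.01 (SE 0.13, adjusted p = 0.00663), with 0.25 (SE 0.13, adjusted p = 0.365) from 24 to 48 h. POLD1, the catalytic subunit of the same polymerase, varied widely between replicates (49.6 and 29.7 FPKM in DMSO, 11.6 and 5.54 FPKM at 24 h in COLO858). The first library lay above the second in every group of both lines, and the SE counts this difference as spread. The log2 fold-change of POLD1 at 24 h in COLO858, −2.12 (SE 0.43), was not called (limma adjusted p = 0.0228).

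PCNA, the sliding clamp, and 4 of the 5 subunits of the loader that sets it on DNA fell in COLO858 at 24 h. The large subunit RFC1 did not pass the test in any comparison without a replicate block. PCNA (chromosome 20, 5095599 to 5107272, minus strand, hg19) measured 163 and 206 FPKM in DMSO, 29.7 and 37.8 FPKM at 24 h, and 138 and 169 FPKM at 48 h in COLO858. The DMSO and 48 h libraries overlapped, and the log2 fold-change at 48 h was −0.26 (SE 0.20, adjusted p = 0.395) after −2.42 (SE 0.20, adjusted p = 0.00204) at 24 h. In MMACSF it measured 64.5 and 65.9 FPKM in DMSO, 21.6 and 20.0 FPKM at 24 h, and 20.2 and 17.4 FPKM at 48 h, a fall of 1.61 and 1.74. RFC3 fell most among the loader subunits, by 3.23 in COLO858 at 24 h and by 2.27 and 2.29 in MMACSF.

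RFC1, which also serves outside S phase in DNA repair (chromosome 4, 39289076 to 39367995, minus strand, hg19), stood at 14.8 and 20.0 FPKM in DMSO, 11.4 and 14.0 FPKM at 24 h, and 14.3 and 16.8 FPKM at 48 h in COLO858. Its MMACSF values were 9.54 and 13.8 FPKM, then 11.8 and 15.3 FPKM, then 13.8 and 15.0 FPKM. Of the 52, it alone had both drug libraries above both DMSO libraries in MMACSF at 48 h, a pattern shown by 35.7% of all tested genes. The gap was narrow, with 13.799 FPKM at 48 h against 13.778 FPKM in DMSO. The log2 fold-changes were −0.42 (adjusted p = 0.192) and −0.14 (adjusted p = 0.647) in COLO858 and 0.21 (adjusted p = 0.532) and 0.30 (adjusted p = 0.355) in MMACSF, with SE of 0.20 and 0.22. The value at 48 h in COLO858 turned to 0.058 without the second DMSO library, and that at 24 h in MMACSF to −0.033 without the first DMSO library.

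Of the 3 subunits of RPA, which coats single-stranded DNA, 2 fell in COLO858 at 24 h. RPA3, its smallest subunit, fell by 1.90 in COLO858 at 24 h (adjusted p = 0.00405), and at 48 h it stood at 46.3% of DMSO (log2 fold-change −1.08, SE 0.21, adjusted p = 0.0202), whereas RPA1 and RPA2 stood at 95.4 and 96.0%. RPA1, the large subunit, read 32.3 and 33.8 FPKM in DMSO, 19.5 and 20.2 FPKM at 24 h, and 30.4 and 32.6 FPKM at 48 h in COLO858. Its log2 fold-change at 24 h was −0.71 (SE 0.12, adjusted p = 0.0148), small but with replicates close together. In MMACSF none of the 3 was called at 24 h, and RPA3 alone was called at 48 h (−1.33, SE 0.13, adjusted p = 0.0032).

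All 3 genes of Okazaki fragment maturation fell in COLO858 at 24 h, to 11.5% (LIG1), 12.2% (FEN1) and 16.5% (RNASEH2A) of DMSO. FEN1, the nuclease that trims the flap left by the preceding fragment, stood at 85.1 and 78.7 FPKM in DMSO, 9.76 and 10.2 FPKM at 24 h, and 58.6 and 58.0 FPKM at 48 h in COLO858. In MMACSF it stood at 58.6 and 55.9 FPKM, then 16.3 and 14.5 FPKM, then 17.4 and 14.6 FPKM. The change of FEN1 was lower in COLO858 than in MMACSF at 24 h, at −1.09 on the log2 scale (SE 0.16, adjusted p = 0.00513), and 1.299 higher at 48 h (SE 0.16, adjusted p = 0.00123). LIG1, the ligase that seals the fragments, and RNASEH2A, the catalytic subunit of ribonuclease H2, fell in MMACSF at 48 h by 1.32 and 1.79; at 24 h LIG1 fell by 1.28, and the −1.52 of RNASEH2A was not called (adjusted p = 0.0119).

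Of the 5 nucleotide supply genes 4 fell in both lines at 24 h. With 1 FPKM added, RRM2 had the lowest log2 fold-change of the 52 in MMACSF at both times. With nothing added, smaller shares of DMSO were left of E2F8 (1.56%), MCM10 (2.77%) and CDC45 (3.22%) at 24 h. At 48 h a smaller share was left of E2F8 (1.03%), which includes a library listed at 0. RRM2, the small subunit of ribonucleotide reductase and the one that is cell cycle regulated (chromosome 2, 10260825 to 10351851, plus strand, hg19), measured 34.9 and 43.8 FPKM in DMSO, 1.13 and 1.501 FPKM at 24 h, and 0.612 and 0.585 FPKM at 48 h in MMACSF, or 3.34 and 1.52% of DMSO. In COLO858 it measured 79.4 and 114 FPKM, then 7.41 and 8.77 FPKM, then 51.9 and 72.1 FPKM. DMSO and drug libraries were far apart in both lines except at 48 h in COLO858, where the gap was narrow. The log2 fold-changes were −4.12 (SE 0.18, adjusted p = 0.000565) and −4.65 (SE 0.18, adjusted p = 0.000345) in MMACSF, and −3.41 (SE 0.25, adjusted p = 0.00145) and −0.63 (SE 0.25, adjusted p = 0.13) in COLO858.

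TK1, the thymidine kinase of the salvage pathway (chromosome 17, 76170172 to 76183314, minus strand, hg19), read 67.6 and 55.1 FPKM in DMSO, 6.60 and 4.95 FPKM at 24 h, and 1.51 and 1.46 FPKM at 48 h in MMACSF. In COLO858 it read 132 and 97.0 FPKM, then 24.5 and 20.8 FPKM, then 89.7 and 69.5 FPKM. At 24 h its share of DMSO was 9.42% in MMACSF and 19.8% in COLO858, and at 48 h 2.42% and 69.5%. TYMS, thymidylate synthase, fell by 2.80 in COLO858 at 24 h and by 2.19 and 2.84 in MMACSF at 24 and 48 h, and at 48 h in COLO858 it stood at 78.3% of DMSO. RRM1, the large reductase subunit, fell by 2.04 in COLO858 at 24 h and by 1.69 and 2.03 in MMACSF. DUT, which removes dUTP from the pool, was not called in any comparison without a replicate block. Its limma values were −1.03 (SE 0.28, adjusted p = 0.051) in COLO858 at 24 h and −0.50 (SE 0.19, adjusted p = 0.109) in MMACSF at 48 h.

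**Figure D2:**
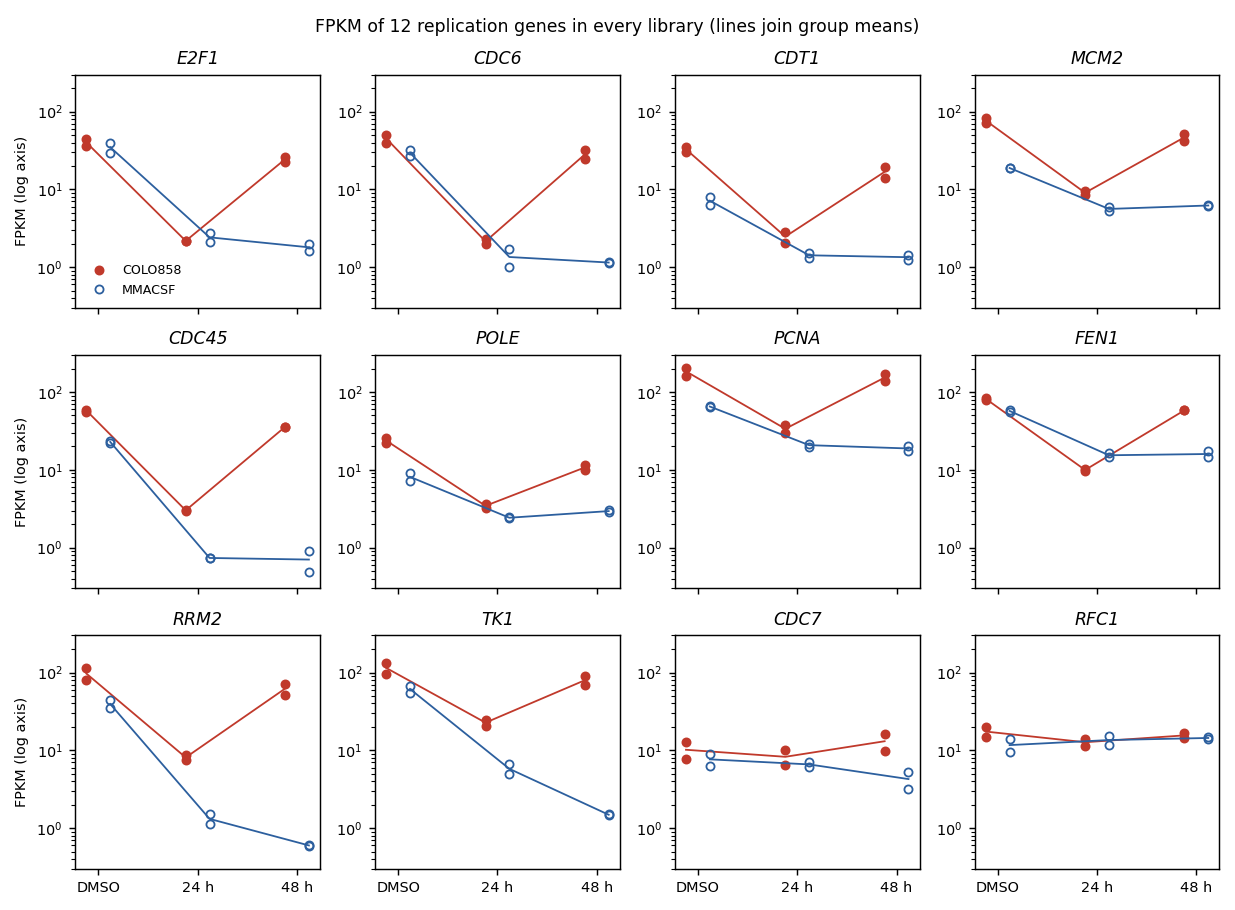
FPKM (y axis, log scale) of 12 of the genes in each of the 12 libraries by condition (x axis), with COLO858 filled and MMACSF open; lines join the group means. Most COLO858 genes form a V, as CDC6 does with means of 45.3, 2.15 and 28.2 FPKM. Most MMACSF genes go down and stay down, TK1 from 61.4 to 5.78 to 1.48 FPKM. RFC1 stays between 72.9 and 124% of DMSO, and CDC7 stands at 129% in COLO858 and 55.8% in MMACSF at 48 h.

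All 4 E2F factors fell in COLO858 at 24 h, to a median of 9.53% of DMSO, and stood between 60.8% (E2F1) and 74.99% (E2F8) at 48 h. E2F1, an activator (chromosome 20, 32263283 to 32274191, minus strand, hg19), measured 44.6 and 35.7 FPKM in DMSO, 2.17 and 2.18 FPKM at 24 h, and 26.3 and 22.5 FPKM at 48 h in COLO858. In MMACSF it measured 40.1 and 29.8 FPKM, then 2.08 and 2.76 FPKM, then 1.98 and 1.63 FPKM. The lines were close in DMSO and at 24 h, and they parted at 48 h. E2F1 fell by 3.69 (SE 0.17, adjusted p = 0.000678) in COLO858 at 24 h, with −0.69 (SE 0.17, adjusted p = 0.0387) at 48 h, and by 3.39 (SE 0.21, adjusted p = 0.00139) and 3.67 (SE 0.21, adjusted p = 0.000719) in MMACSF.

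E2F2, another activator, was at 4.52 ± 0.755 FPKM in DMSO, 0.443 ± 0.162 FPKM at 24 h and 3.35 ± 0.0985 FPKM at 48 h in COLO858 (SD, n = 2). E2F7 and E2F8 are repressors that are themselves E2F targets. E2F7 fell by 1.89 in COLO858 at 24 h (adjusted p = 0.00226), and in MMACSF it was called at 48 h (−1.78, SE 0.22, adjusted p = 0.00542) but not at 24 h (−1.25, SE 0.22, adjusted p = 0.0168). E2F8 stood at 10.0 and 13.1 FPKM in DMSO, 1.03 and 1.11 FPKM at 24 h, and 8.03 and 9.32 FPKM at 48 h in COLO858. In MMACSF it stood at 3.19 and 3.999 FPKM in DMSO, 0.042 and 0.0704 FPKM at 24 h, and at 0.0737 FPKM and listed at 0 at 48 h, so that its fitted value at 48 h rests on a zero. All 4 log2 fold-changes against DMSO were negative in each line at both times.

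The 3 genes of chromatin assembly and maintenance also fell in COLO858 at 24 h. UHRF1, which reads hemimethylated DNA behind the fork, read 61.7 and 49.2 FPKM in DMSO, 7.78 and 4.77 FPKM at 24 h, and 41.3 and 32.0 FPKM at 48 h in COLO858, and 14.4 and 11.8, then 1.10 and 0.684, then 0.637 and 0.711 FPKM in MMACSF. It fell by 2.98 in COLO858 at 24 h and by 2.90 and 3.07 in MMACSF. The chromatin assembly factor subunits CHAF1A and CHAF1B, which place histones on new DNA, fell by 2.96 and 2.29 in COLO858 at 24 h. In MMACSF CHAF1B fell by 1.13 and 1.31, and CHAF1A, at −1.37 and −1.53, was not called (adjusted p = 0.0201 and 0.0122).

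**Figure D3:**
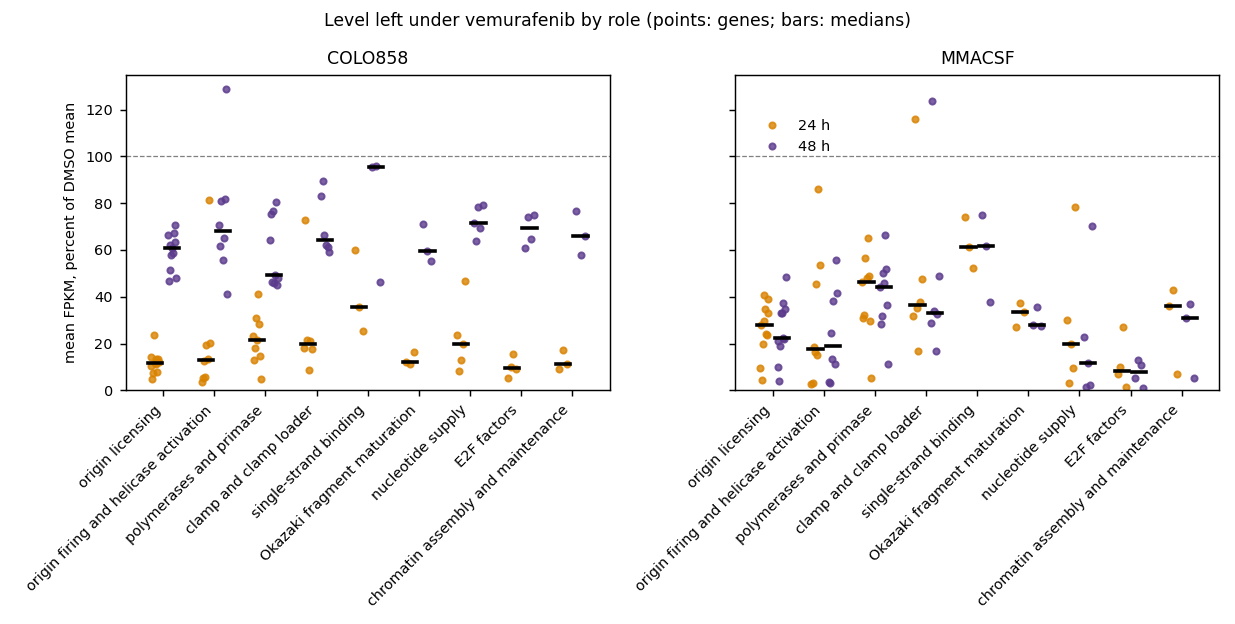
Mean FPKM as a percent of the line's DMSO mean (y axis) for each gene (points) by role (x axis) at 24 and 48 h, with bars at role medians; the dashed line is the DMSO mean, and the MMACSF means of POLE2 at 24 h and E2F8 at 48 h include a library listed at 0. In COLO858 every role median is higher at 48 h, from 49.3% for polymerases to 95.4% for single-strand binding, while in MMACSF the nucleotide supply median goes from 19.9 to 11.7%.

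The change from 24 to 48 h in drug was then compared within each line. In COLO858 all 52 genes had a positive log2 fold-change, from 0.25 (POLD2) to 3.20 (CDC6), where 5327 of 12696 tested genes had one. Of the 52, 22 were called higher, where 1.17% of tested genes were. The medians were 1.76 over the members and −0.07 over all tested genes. In 51 genes, all but CDC7, both 48 h libraries lay above both 24 h libraries, as in 20.1% of all tested genes. CDC45 rose by 3.19 (SE 0.12, adjusted p = 0.00103), CDC6 by 3.20 (SE 0.20, adjusted p = 0.00369), E2F1 by 2.99 (SE 0.17, adjusted p = 0.003) and FEN1 by 2.43 (SE 0.12, adjusted p = 0.00218). Origin licensing held 8 of the 22, and none of the 3 RPA subunits was among them. The count rested on all 4 libraries: with any 1 of them left out, calls fell over the members and over all tested genes. The median over the members then lay between 1.75 and 1.85.

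In MMACSF no member was called between 24 and 48 h by limma, where 0.111% of tested genes were called lower, and 4 had an unadjusted p under 0.05: TK1, TYMS, RRM2 and RPA3. Over all tested genes 6.98% had such a p, a share near that of the members, so the count itself says nothing particular of them. Both 48 h libraries lay below both 24 h libraries in 16 members, as in 17.6% of all tested genes. They lay above them in 4, as in 14.5%. The log2 fold-changes ran from −1.44 (TK1) to 0.29 (MCM7) with a median of −0.07. All 5 nucleotide supply genes were negative, as were 6674 of the 12599 tested genes. TK1 had the smallest adjusted p, 0.0669 (SE 0.18), and TYMS was at −0.65 (SE 0.13, adjusted p = 0.231). A count of 0 was also obtained with any 1 of the 24 and 48 h libraries of MMACSF left out.

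**Figure D4:**
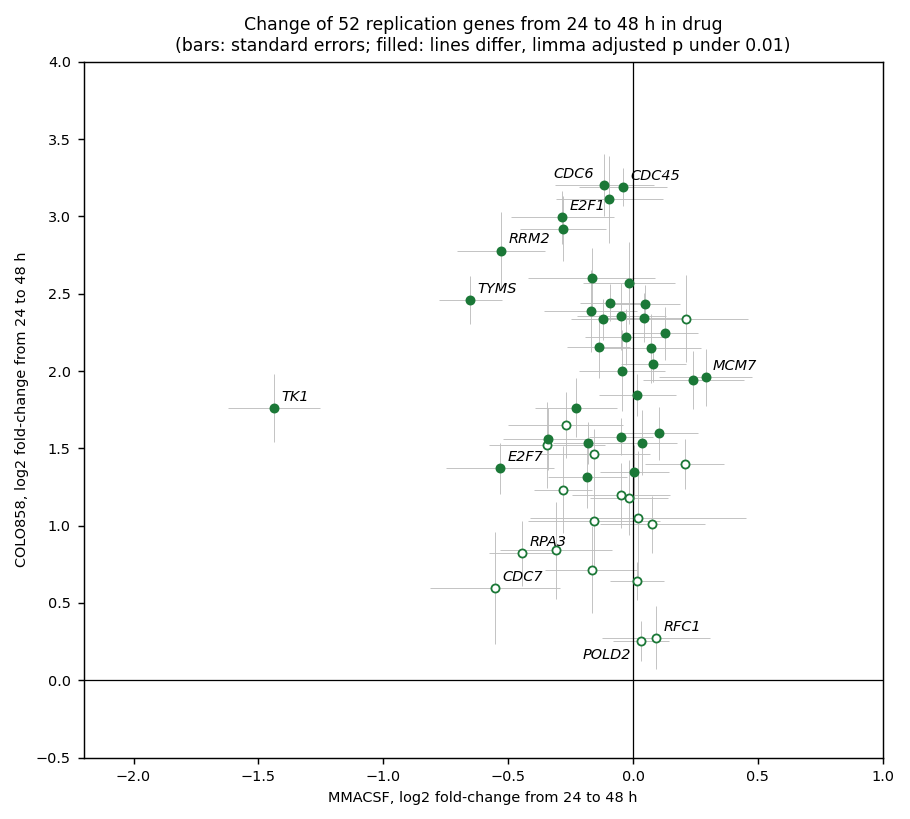
Log2 fold-change from 24 to 48 h of each of the 52 genes in MMACSF (x axis) and COLO858 (y axis), with standard errors; filled points are genes whose change differed between the lines (limma adjusted p under 0.01). All 52 points are above 0 on the COLO858 axis, the highest CDC6 at 3.20, and on the MMACSF axis most lie within 0.5 of 0, with TK1 apart at −1.44.

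Whether the lines differed in these changes was tested as an interaction in a model of all 12 libraries. At 24 h the fall was called steeper in COLO858 for 7 genes, where 1.93% of 13595 tested genes were, namely the helicase subunits MCM2, MCM3, MCM4 and MCM7, the polymerase alpha subunit POLA2, FEN1 and CHAF1B. The median difference over the members was −0.81, and that of MCM7 was −1.70 (SE 0.27, adjusted p = 0.00688). For CDC6, CDC45, UHRF1 and E2F1, which fell steeply in both lines, the differences were −0.16, −0.09, −0.08 and −0.30. Their limma adjusted p were 0.843, 0.87, 0.948 and 0.613, with SE of 0.28, 0.19, 0.33 and 0.26. As ratios of mean FPKM, with nothing added, the falls in COLO858 and MMACSF were 21.1 and 21.9-fold for CDC6 and 18.4 and 14.4-fold for E2F1. For CDC45 (19.2 and 31.1-fold) and UHRF1 (8.84 and 14.7-fold), under 1 FPKM in MMACSF at 24 h on average, the ratio was steeper in MMACSF. With any 1 of the 8 DMSO and 24 h libraries left out, calls fell over the members and over all tested genes. The median difference over the members then lay between −0.96 and −0.69.

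At 48 h the change from DMSO was called higher in COLO858 for 19 genes, where 4.19% of tested genes were, with a median difference of 0.92 over the members and −0.04 over all tested genes. With 1 FPKM added, the greatest differences were those of 2 nucleotide supply genes, 4.13 for TK1 (SE 0.29, limma adjusted p = 7.34e-05) and 4.02 for RRM2 (SE 0.32, adjusted p = 0.000136). CDC6 (3.16), CDC45 (3.14), E2F1 (2.98) and TYMS (2.49, SE 0.17, adjusted p = 6.57e-05) followed. This order depends on the 1 FPKM added, which understates changes of low genes. As shares of DMSO with nothing added, E2F8 stood at 74.99% in COLO858 and 1.03% in MMACSF, where 1 library was listed at 0. RRM2 stood at 64.0 and 1.52%, TK1 at 69.5 and 2.42%, and MCM10 at 70.7 and 3.44%. The difference was negative for 5 genes and called for none of them, namely RFC1 (−0.45, adjusted p = 0.422), POLD2 (−0.43, adjusted p = 0.0997), POLD1 (−0.13, adjusted p = 0.945), DBF4 (−0.08, adjusted p = 0.94) and MCM7 (−0.03, SE 0.27, adjusted p = 0.968). Of the 11 licensing genes 3 were called, and of the 5 nucleotide supply genes 4.

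The change from 24 to 48 h was called higher in COLO858 for 34 of the 52, where 2.46% of tested genes were. The difference was positive for all 52, from 0.18 (RFC1) to 3.32 (CDC6), and for 6129 of 13595 tested genes. The calls among the members were spread over the roles as follows. The difference was called in 9 of 11 licensing genes, 5 of 8 firing genes, 4 of 5 nucleotide supply genes, all 4 E2F factors and all 3 chromatin genes, but in 2 of 9 polymerase and primase genes. With any 1 of the 24 and 48 h libraries left out, calls fell over the members and over all tested genes. The median difference over the members then lay between 1.83 and 1.96. The 24 and 48 h contrasts share the DMSO libraries, and the 24 to 48 h contrast shares the drug libraries with both.

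Other genes of replication, histone supply and the E2F and RB families, 51 by name, of which 50 were found and tested, were read beside the members. In COLO858 19 of the 50 were called lower at 24 h (5.71% of all tested genes), and 2 rose from 24 to 48 h (1.17%). At 48 h 2 were called lower and 1 higher, no more than the shares over all tested genes (4.73% and 4.74%). In MMACSF 10 and 12 were called lower at 24 and 48 h (3.60% and 5.41%). ASF1B, a histone chaperone, fell by 3.18 in COLO858 and by 3.01 in MMACSF at 24 h, rose again by 2.67 in COLO858, and was 3.87 lower than DMSO in MMACSF at 48 h. TOP2A, the topoisomerase of late S phase and mitosis, read 62.2 ± 11.6 FPKM in DMSO, 8.06 ± 1.48 FPKM at 24 h and 0.833 ± 0.252 FPKM at 48 h in MMACSF, a fall of 2.80 and 5.10. In COLO858 DSCC1, a clamp loader subunit, fell by 2.97 at 24 h.

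The genes behind those 48 h counts in COLO858 are given as values. The 2 called lower were TOP1, the topoisomerase that relieves torsion, which fell by 1.66 at 24 h and 1.77 at 48 h, and SLC29A1, a nucleoside transporter, at −1.32 and −1.27. SAMHD1, which degrades dNTP, was 1.42 higher at 48 h (adjusted p = 0.00479) and read 10.3 ± 1.16 FPKM in DMSO and 29.1 ± 2.23 FPKM at 48 h. For TOP1 the change was lower in COLO858 than in MMACSF at 24 h (−1.63) and 48 h (−1.48, where 3.30% of tested genes were called lower), and for TOP2A and ASF1B it was higher at 48 h (4.67 and 3.35) and from 24 to 48 h (4.42 and 3.52).

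Of the pocket proteins and the other E2F subunits named here, TFDP1 alone was called in any comparison. RB1, the retinoblastoma protein, was at 16.3 ± 3.95, 15.7 ± 1.74 and 17.6 ± 3.90 FPKM in COLO858 and at 12.7 ± 3.14, 12.9 ± 2.23 and 11.5 ± 1.79 FPKM in MMACSF (DMSO, 24 h and 48 h; SD, n = 2). RBL2, the pocket protein of quiescent cells, had log2 fold-changes of 0.39 and 0.22 in COLO858 and 0.47 and 0.46 in MMACSF, none of them called. RBL1, itself an E2F target, was at −1.28 (adjusted p = 0.0132) at 24 h and −0.03 (adjusted p = 0.936) at 48 h in COLO858, and at −0.9951 and −0.88 in MMACSF. E2F3 and E2F4 were not called in any comparison, with −0.86 (adjusted p = 0.0451) for E2F3 in COLO858 at 48 h the furthest from 0. TFDP1, the dimer partner of E2F factors, fell by 1.09 in COLO858 and by 0.82 in MMACSF at 24 h, and its 48 h values of −0.81 and −0.62 were not called (adjusted p = 0.0109 and 0.0138).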

How the data were processed

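RNA was measured in 12 libraries, 2 in each of 6 groups, named from the sample titles. Per the paper and the submitters' processing notes, the authors sequenced stranded mRNA libraries as single reads, mapped them to hg19 with TopHat and computed gene values with Cuffdiff; the annotation, versions and scaling between libraries are not given in the sources used here. The deposited values are FPKM, 1 table per line, and their depth is unknown. The tables are named only as normalized, so the unit was taken from the paper's methods. All 12 value columns were used.

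The 52 members and all lists were chosen with earlier results of these data known. Values were analyzed as log2(FPKM + 1) with limma 3.58.1 in R 4.3.3 (mean-variance trend, moderated, two-sided), on genes that averaged 1 FPKM or more in some group, with 3 groups per line or, for line differences, 6 groups. Benjamini-Hochberg adjustment ran over all genes tested, and genes were called at an adjusted p under 0.01. The pseudocount understates changes of low genes. The fit was tested on simulated data with known changes. Named genes were 37 members chosen by role, members at an extreme of their role, 6 E2F and RB genes, and the 2 largest calls of the 51 other genes per direction and comparison, of which an item is not reported here. Positions are from GENCODE v44 lifted to GRCh37 (hg19) and promoters from RefSeq on GRCh38.p14; no entry was used for MCM4, MCM5, GINS4, POLD3, RPA2, RPA3 and E2F8. Alternatives were another or no pseudocount, other filters, a replicate block, median-ratio scaling, no trend, no small RNA genes, another threshold, a spread from the compared groups alone, and leaving out each library.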

Additional observations from a re-analysis of the deposited data

Results flagged for a closer look

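For 45 values among the 37 members named by role, the change differed between the lines by the interaction test (limma adjusted p under 0.01). All are differences of log2 fold-changes, COLO858 minus MMACSF, with 2 libraries per group. At 24 h against DMSO the 5 differences were −1.70 for MCM7, −1.36 for MCM2, −1.33 for MCM3, −1.16 for CHAF1B and −1.09 for FEN1; the fall was steeper in COLO858 for each.

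At 48 h against DMSO the 15 differences were 4.13 for TK1, 4.02 for RRM2, 3.16 for CDC6, 3.14 for CDC45, 2.98 for E2F1, 2.49 for TYMS, 2.48 for UHRF1, 1.96 for MCM10, 1.84 for GINS2, 1.77 for E2F8, 1.55 for RRM1, 1.54 for ORC1, 1.48 for PCNA, 1.299 for FEN1 and 1.25 for E2F2, all toward higher levels in COLO858.

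From 24 to 48 h in drug the 25 differences were 3.32 for CDC6, 3.31 for RRM2, 3.28 for E2F1, 3.23 for CDC45, 3.20 for GINS2, 3.20 for TK1, 3.11 for TYMS, 2.77 for CHAF1A, 2.58 for RFC3, 2.56 for UHRF1, 2.40 for CDT1, 2.39 for FEN1, 2.30 for MCM10, 2.29 for PCNA, 2.25 for E2F8, 2.12 for MCM2, 2.05 for LIG1, 1.96 for MCM3, 1.90 for E2F7, 1.90 for RRM1, 1.83 for ORC1, 1.72 for CHAF1B, 1.70 for POLE2, 1.67 for MCM7 and 1.49 for E2F2, again all toward COLO858. The values of E2F8 and POLE2 rest in part on an MMACSF library listed at 0. The 3 contrasts share libraries, so that they are not independent of each other. Groups of 2 libraries were too small for a search for outlying samples.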

How the results depend on the processing

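The median change of the members kept its sign in each of the 9 comparisons under every alternative run. Leaving out 1 library gave 9 to 15 calls in COLO858 at 24 h, 0 at 48 h and 0 to 1 from 24 to 48 h, 3 to 4 and 6 to 8 in MMACSF at 24 and 48 h, and 1 to 3, 13 to 17 and 19 to 24 for the line differences at 24 h, at 48 h and from 24 to 48 h; a group of 1 library was then assumed to vary like the others. In the counts that follow, those over all tested genes in the same direction stand in parentheses. In COLO858 at 48 h against DMSO, 1 was called lower (600). The count lower was 3 with 0 FPKM added (775), 2 with a minimum of 10 FPKM (386) and 2 with no trend (563). It was 4 without small RNA genes (890), 0 with only the groups compared (226) and 21 at a limma adjusted p under 0.05 (1735). From 24 to 48 h in COLO858, 22 were called higher (148). The count higher was 37 with 0 FPKM added (273), 13 with no minimum (74) and 37 without small RNA genes (281). It was 5 with only the groups compared (25) and 42 at 0.05 (554). MMACSF at 24 h gave 18 lower with only the groups compared (178), and the line difference at 24 h gave 18 lower at 0.05 (649). With a replicate block, which also raised the calls over all genes, the count for COLO858 at 24 h was 51 (all lower, 21.8%). For MMACSF it was 47 at 24 h (all lower, 13%) and 48 at 48 h (all lower, 15.3%). For COLO858 at 48 h it was 37. Of these, 36 were lower, where 23.3% of all tested genes were, and 1 was higher, CDC7, where 20.4% were. From 24 to 48 h in COLO858 the count was 49 (all higher, 9.13%). The line difference at 24 h gave 28 (27 lower, 8.64%, and 1 higher, 8.98%), and that at 48 h gave 32 (1 lower, 12.2%, and 31 higher, 13%). That from 24 to 48 h gave 49 (all higher, 7.62%). The numbers are not said to mark a shared day or batch; deviations of same-numbered libraries correlated at 0.755 to 0.914 in COLO858 and 0.405 to 0.672 in MMACSF over the members, at 0.0628 to 0.211 over all tested genes, and at 0.753 to 0.779 and 0.590 to 0.673 over all tested genes without small RNA genes. The causes were not tested. Of the single genes, CDC7 and RFC1 changed sign, and only when a library was left out: CDC7 ranged from −0.588 to 0.063 in COLO858 at 24 h (0.026 without the first 24 h library), from −0.0073 to 0.672 at 48 h and from −0.393 to 0.040 in MMACSF at 24 h, and RFC1 from −0.347 to 0.058 in COLO858 at 48 h and from −0.033 to 0.454 in MMACSF at 24 h. No read depth was given, which limits what can be said of members under 1 FPKM.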
